A study of Mus musculus with 7 samples.

Results

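EED peaks that lie in H3K27me3 without H3K4me3 were examined in wild-type CD1 mouse spermatocytes at postnatal day 17 (P17). They were chosen by their called positions, as the P17 EED peaks that shared at least 1 bp with a P17 H3K27me3 peak and no base with a P17 H3K4me3 peak, which gave 253 of 2701 EED peaks, 9.37% of the list. They are called H3K27me3-only EED peaks here, a name that describes the bases under the peak and not its surroundings. Of the other EED peaks, 1970 lay over both marks (dual-mark EED peaks), 74 lay over H3K4me3 only and 404 lay outside both marks.

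The chromatin came from testes of wild-type CD1 mice at P17 and at postnatal day 12 (P12); the cells were dissociated by enzymes and enriched on Percoll, with no sort named in the labels. Peak positions without gene names did not allow a check of cell identity, and shared positions do not separate cells with both signals from mixtures of cells with either. The EED and H3K27me3 peaks were defined in P17 cells, and H3K27me3 and H3K4me3 at P12 served as the earlier stage. The P17 histone-mark lists each pooled 2 replicates, while EED at P17 and both marks at P12 came from 1 library each. No list has a replicate beside it, so no test over samples could be made, and intervals below cover counting error only and treat peaks as independent.

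EED is a core subunit of Polycomb repressive complex 2 (PRC2), the enzyme complex that trimethylates lysine 27 of histone H3. EED binds H3K27me3 that is already present, and this binding stimulates the catalytic subunit, so the mark can spread along chromatin from the sites where PRC2 is recruited. In mammals PRC2 is typically recruited at CpG islands, many of which are promoters that also carry H3K4me3, the mark of Trithorax-type complexes; the pairing of both marks is known from developmental genes in embryonic stem cells and germ cells. Gene names and base sequences of the regions are not given, because no mm9 annotation or genome was used here; coordinates are mm9, counted from 1.

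The peaks named by their lack of H3K4me3 lay close to it. The nearest P17 H3K4me3 peak was at a median of 506 bp (order-statistic 95% interval 404 to 603), with 25% of peaks within 188 bp and 75% within 991 bp. An H3K4me3 peak lay within 100 bp of 40 of the 253 peaks, within 1000 bp of 191 and within 5000 bp of 246. These distances follow in part from the rule, which fixes that none is an overlap, and are given as a description. The H3K4me3-free stretch of H3K27me3 around each peak had a median length of 2893 bp, and a short stretch leaves little room for longer distances. Distances from other H3K4me3-free bases in H3K27me3 were not measured. By comparison, the EED peaks outside both marks were a median of 17916 bp from H3K4me3 (13891 to 21694).

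**Figure D1:**
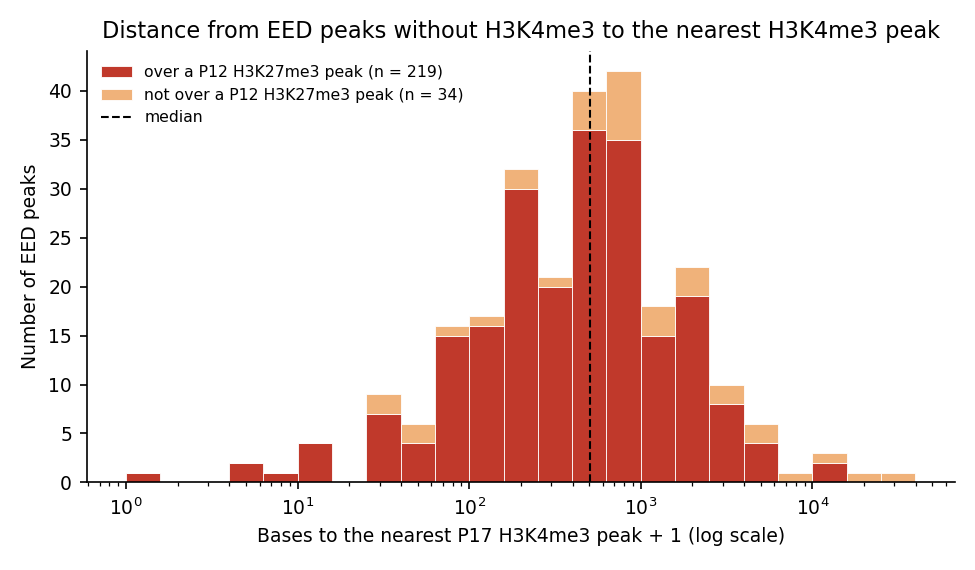
Number of H3K27me3-only EED peaks (vertical axis) by the number of bases, plus 1, to the nearest P17 H3K4me3 peak (horizontal log axis), with peaks over a P12 H3K27me3 peak in red and the others in orange. The dashed line marks the median of 506 bp, and 191 of 253 peaks lie within 1000 bp.

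Most of the domains around these peaks carried H3K4me3 elsewhere: 125 of 136, 91.9% (86.1% to 95.4%). The share was 63.0% (16636 of 26387) for all P17 H3K27me3 domains and 100% (463 of 463) for those whose EED peaks were all dual-mark. Dual-mark peaks themselves lie over H3K4me3, so that 100% is tied to the choice. The domains around the H3K27me3-only peaks were wider than all P17 H3K27me3 domains (medians of 14465 and 2529 bp). The part of width in the share was not tested. The host domain, meaning the P17 H3K27me3 peak sharing most bases with the EED peak, overlapped an H3K4me3 peak for 242 of 253 H3K27me3-only EED peaks, 95.7% (Wilson 95% interval 92.4% to 97.6%). Of the 253, 165 lay inside a stretch with an H3K4me3 peak of the same domain on each side, and 77 lay between an H3K4me3 peak and the edge of the domain. The remaining 11 lay in domains without any H3K4me3. Stretch lengths were counted once per EED peak, so a stretch with several peaks counts several times. The H3K4me3-free stretches between 2 H3K4me3 peaks had a median length of 3194 bp (range 299 to 12818). Those reaching a domain edge had 2762 bp (358 to 12384). Over all 253, the EED peak took up a median of 10.6% of its stretch.

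At the boundary of the rule, the peaks just inside and just outside differed by a few bases. The nearest of the H3K27me3-only peaks, on chromosome 5 at 140025049 to 140025521, touched its H3K4me3 peak with 0 bases between. The next had 3, 4, 6 and 11 bases between, on chromosomes 1, 14, 11 and 6. Just outside, a 946 bp EED peak on chromosome 2 at 158438092 to 158439037 shared 3 bases with H3K4me3, and the next 4 such peaks shared 4, 8, 8 and 9 bases. On the H3K27me3 side the boundary was sharp, as it was for dual-mark peaks, of which 1969 of 1970 lay wholly inside H3K27me3. Of the 253 H3K27me3-only peaks, 251 lay wholly inside it. One of the exceptions, a 206 bp peak on chromosome 10 at 20266447 to 20266652, had 7.28% of its bases in H3K27me3. The other, on chromosome 9 at 89777092 to 89778187, had 98.6% and bridged neighbouring domains. The next smallest overlaps, 103, 121, 124 and 143 bp, were those of whole peaks that narrow. The nearest H3K4me3-free EED peaks outside H3K27me3 were 148, 208, 258, 720 and 745 bp away from a domain.

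H3K27me3-only EED peaks had a median width of 283 bp (263 to 311; range 103 to 1774), close to the 303 bp over all EED peaks. Dual-mark EED peaks had a median of 358 bp (342 to 373; range 113 to 10290), and EED peaks outside both marks 174 bp (171 to 177; range 78 to 836). Peaks of at least 1000 bp made up 7 of the 253 H3K27me3-only peaks, 2.77% (1.35% to 5.60%), against 293 of 1970 dual-mark peaks, 14.9% (13.4% to 16.5%). Width and the rule are tied, since a wider EED peak has more room to touch an H3K4me3 peak. Among all EED peaks in H3K27me3, H3K27me3-only peaks made up 48 of 319 below 200 bp and 148 of 985 from 200 to 400 bp, 15% in each class. They made up 8.91% (46 of 516) from 400 to 800 bp and 2.73% (11 of 403) above that. The part of this tie in the width difference was not tested.

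**Figure D2:**
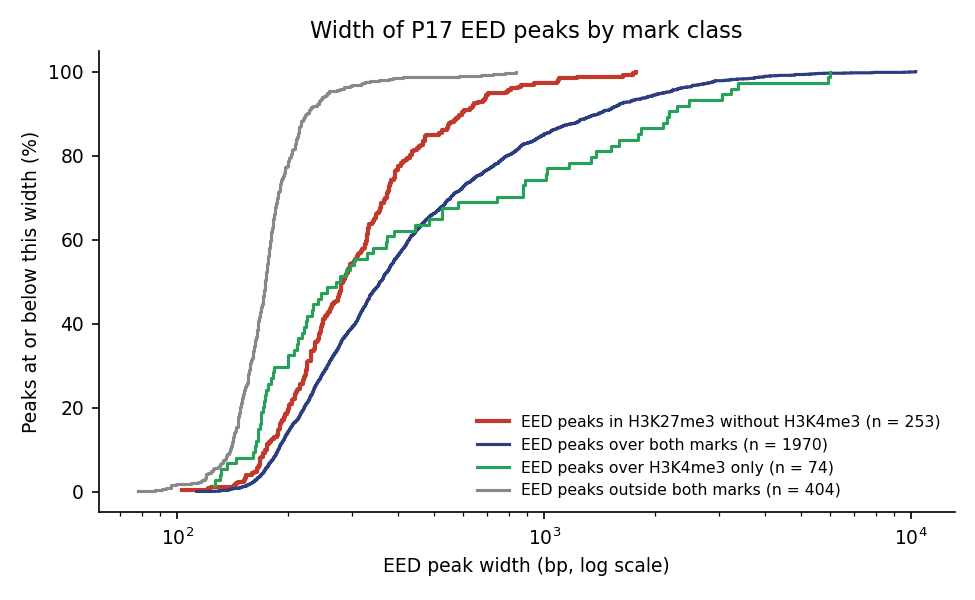
Cumulative share of P17 EED peaks (vertical axis, %) at or below a given width (horizontal log axis, bp) in each of the 4 classes of mark overlap. The H3K27me3-only curve (red, median 283 bp) runs between the peaks outside both marks (grey, median 174 bp) and the dual-mark peaks (blue, median 358 bp).

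The widest H3K27me3-only EED peak covered 1774 bp on chromosome 14 at 122866349 to 122868122. It lay 914 bp from H3K4me3 in a domain of 34921 bp. Next came a 1749 bp peak on chromosome 15 at 102825912 to 102827660, which lay 202 bp from H3K4me3 in the widest P17 H3K27me3 domain of all, 95692 bp. A 1644 bp peak on chromosome 1 at 42759726 to 42761369 lay 2890 bp from H3K4me3, and a 1230 bp peak on chromosome 5 at 140025594 to 140026823 lay 202 bp from it. All 4 were covered in full by P12 H3K27me3. The fifth, the 1096 bp peak on chromosome 9 that bridged neighbouring domains, differed from them: it lay 13198 bp from H3K4me3, its host domain was only 1336 bp wide, and it shared no base with P12 H3K27me3, the nearest such peak being 394 bp away.

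Most host domains were wide for the P17 list, but not all. Of the 136, 65.4% were over 10 kb, against 2.24% of all P17 H3K27me3 domains. The narrowest host, of 1299 bp, ranked 25203 by width. The 253 peaks lay in 136 domains, 0.515% of 26387, with a median width of 14465 bp (12886 to 18233; range 1299 to 95692). The 463 domains whose EED peaks were all dual-mark had a median width of 8069 bp (7534 to 8420), and the 25787 domains without EED 2491 bp (2472 to 2512). Of the 590 domains over 10 kb, 89 held an H3K27me3-only EED peak, and of the 6 domains over 40 kb, 5 did. In these 5 widest hosts the widest H3K27me3-only EED peak was 1749 bp on chromosome 15, 566 and 413 bp in the hosts of 90275 and 45606 bp on chromosome 11, 864 bp on chromosome 2 and 437 bp in the host of 41330 bp on chromosome 8. Counted per EED peak, the median host width was 21740 bp (19659 to 23539) for H3K27me3-only peaks and 14863 bp (14244 to 16093) for dual-mark peaks. Among EED peaks in H3K27me3, the H3K27me3-only share was 8.36% in hosts under 10 kb, 7.76% from 10 to 20 kb, 16.8% from 20 to 40 kb and 18.5% above. A wide domain has more bases in which any peak can fall, and how far this sets the width of the hosts was not tested.

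Host domains were also built of several H3K4me3 and EED peaks. Their median number of H3K4me3 peaks was 3 (range 0 to 20), against 1 (1 to 6) in the domains with dual-mark EED peaks only. Their median share of bases under H3K4me3 was 44.9%, against 58.5%. The median number of EED peaks was 6 in the hosts and 2 in the domains with dual-mark EED peaks only. The hosts were also wider (medians of 14465 and 8069 bp), and a domain with more EED peaks has more chances to hold an H3K27me3-only one. The part of either in these counts was not tested. In 112 of the 136 hosts, 82.4% (75.1% to 87.8%), at least 1 dual-mark EED peak lay in the same domain. H3K27me3-only EED peaks came singly in 85 hosts and in pairs in 27, while 9 hosts held 3, 5 held 4, 5 held 5 and 2 held 6 of them. The 3 fullest hosts held 8, 9 and 13.

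EED peaks clustered inside these domains. The nearest other EED peak was a median of 181 bp away from an H3K27me3-only peak (125 to 237), and 211 of 253, 83.4% (78.3% to 87.5%), had one within 1 kb. The lower quartile of that distance was 41 bp, and 36.2 bp for dual-mark peaks, so some calls nearly touched. Widths are given per call, and whether such calls form 1 stretch of EED was not tested. Dual-mark peaks had a similar median distance of 147 bp (135 to 159) with 81.2% (79.4% to 82.8%) within 1 kb, whereas 11 of 404 peaks outside both marks, 2.72% (1.53% to 4.81%), had one so near. For 143 of the 253 the nearest other EED peak was a dual-mark peak, and for 102 it was another H3K27me3-only peak. When EED peaks within 1 kb of each other were merged, 191 of the 253 became part of a region that did overlap H3K4me3. Only 62 stayed in merged regions free of it, and these formed 51 of 1334 merged regions. By this count, 75.5% (69.8% to 80.4%) of the H3K27me3-only EED peaks were parts of EED clusters that reached into H3K4me3.

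The domain with the most H3K27me3-only EED peaks lay on chromosome 14 at 122858619 to 122893539 and held 13 of them beside 8 dual-mark EED peaks. Its 5 H3K4me3 peaks covered 34.6% of its bases. In order of position the 13 peaks were 279, 296, 1774, 629, 180, 181, 516, 276, 280, 203, 813, 264 and 1092 bp wide. Their distances to H3K4me3 in the same order were 4, 578, 914, 2692, 3334, 2999, 634, 14, 535, 1954, 2167, 2365 and 97 bp. Some of these calls nearly touched: the 1774 and 629 bp peaks lay 4 bp apart, and the 203 and 813 bp peaks 10 bp apart. Within this 1 domain EED peaks lay up to 3334 bp from H3K4me3, with the 2 widest peaks, 1774 and 1092 bp, lying 914 and 97 bp from it. All 13 were covered in full by H3K27me3 at P12, when 86% of the domain's bases were marked.

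The other hosts rich in such peaks had a like layout. A 72573 bp domain on chromosome 2 at 74482891 to 74555463 held 9 H3K27me3-only and 27 dual-mark EED peaks among 15 H3K4me3 peaks, and 8 of the 9 lay over P12 H3K27me3. The 95692 bp domain on chromosome 15 at 102738509 to 102834200 held 8 and 21 among 20 H3K4me3 peaks, with all 8 over P12 H3K27me3. A 20466 bp domain on chromosome 5 at 120276207 to 120296672 held 6 and 5, and H3K4me3 covered 17.6% of it; all 6 lay over P12 H3K27me3. The domain on chromosome 12 at 50473368 to 50496942, 23575 bp wide, held 6 and 9. It departed from the other 4 in the earlier stage, since only 2 of its 6 H3K27me3-only EED peaks lay over P12 H3K27me3. Those 2 had only 6.99% and 10.4% of their bases under it.

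**Figure D3:**
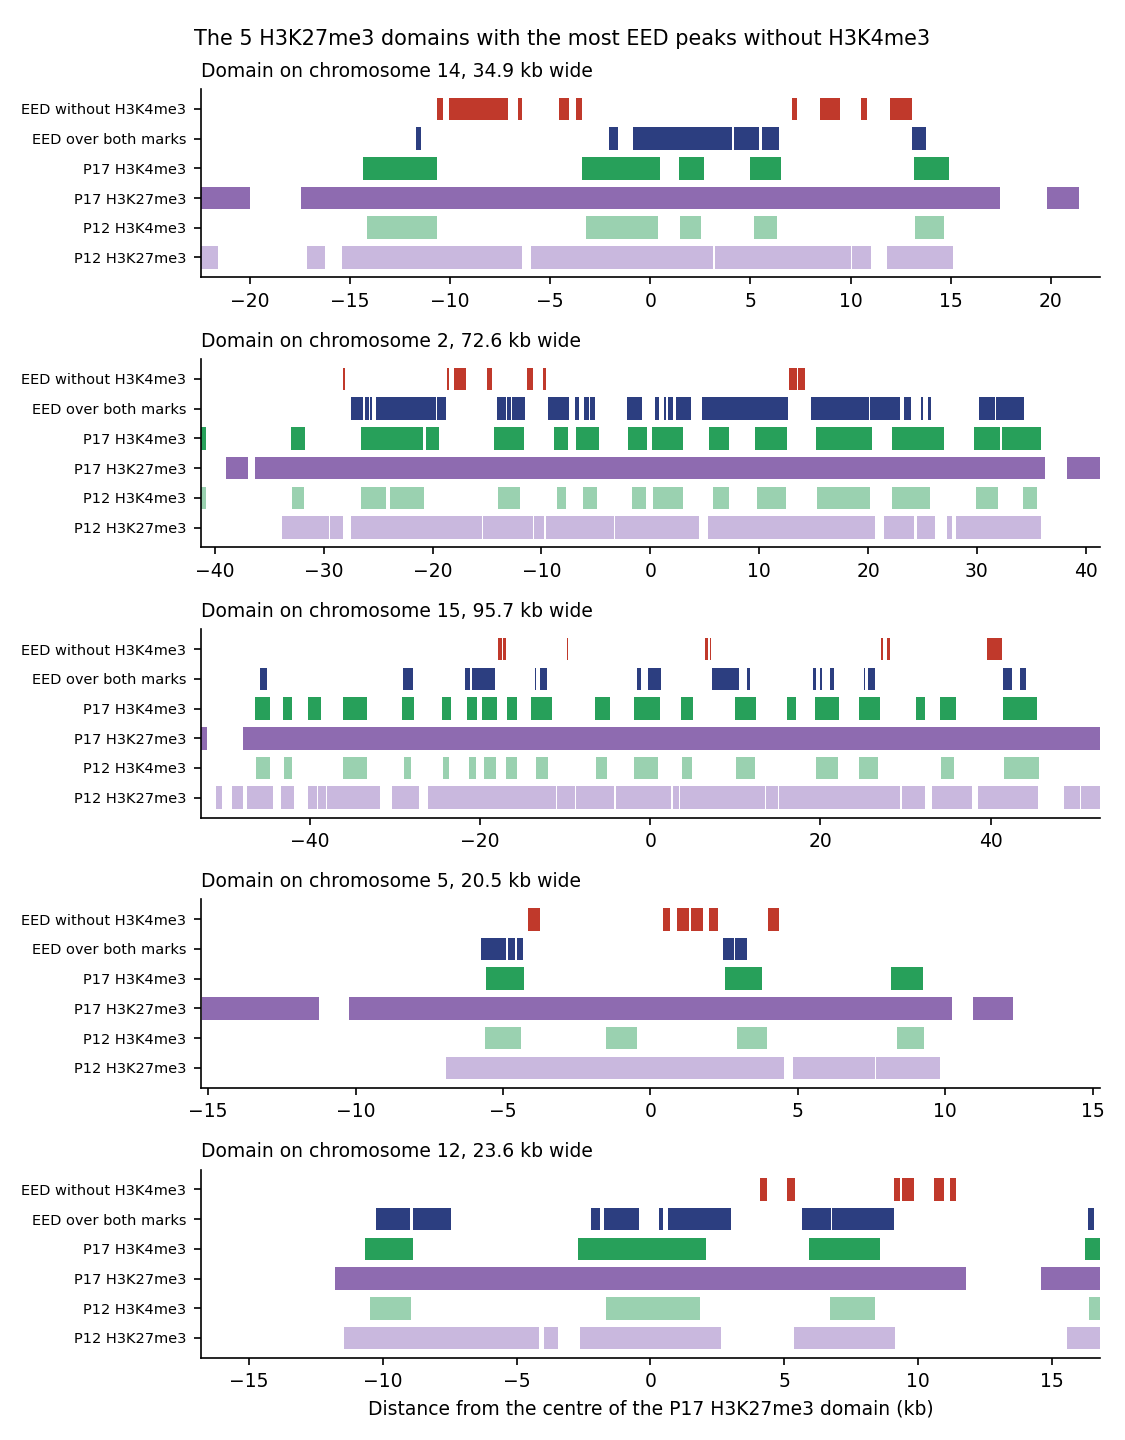
Called peaks in the 5 P17 H3K27me3 domains with the most H3K27me3-only EED peaks, drawn to scale as distance from the domain centre (kb) with 5 kb on each side; rows from the top are H3K27me3-only EED, dual-mark EED, P17 H3K4me3, P17 H3K27me3, P12 H3K4me3 and P12 H3K27me3. The red EED peaks stand between or beside the green H3K4me3 peaks of the same domain, 13 of them in the domain on chromosome 14.

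Over the 136 hosts together, EED was sparser away from H3K4me3. Bases free of H3K4me3 made up 1335 kb, 55.3% of the hosts, and 14.4% of these bases were under an EED peak. Of the 1077 kb under H3K4me3, 43.6% were under EED. In the domains with dual-mark EED peaks only, the shares were 2.91% of 2028 kb and 24.9% of 2506 kb. EED bases free of H3K4me3 in the hosts came to 193 kb, more than the 88.9 kb of the H3K27me3-only peaks themselves, since dual-mark EED peaks also ran past the edges of H3K4me3. The hosts were chosen for having EED away from H3K4me3, so the contrast between the kinds of domain is a description and was not tested.

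**Figure D4:**
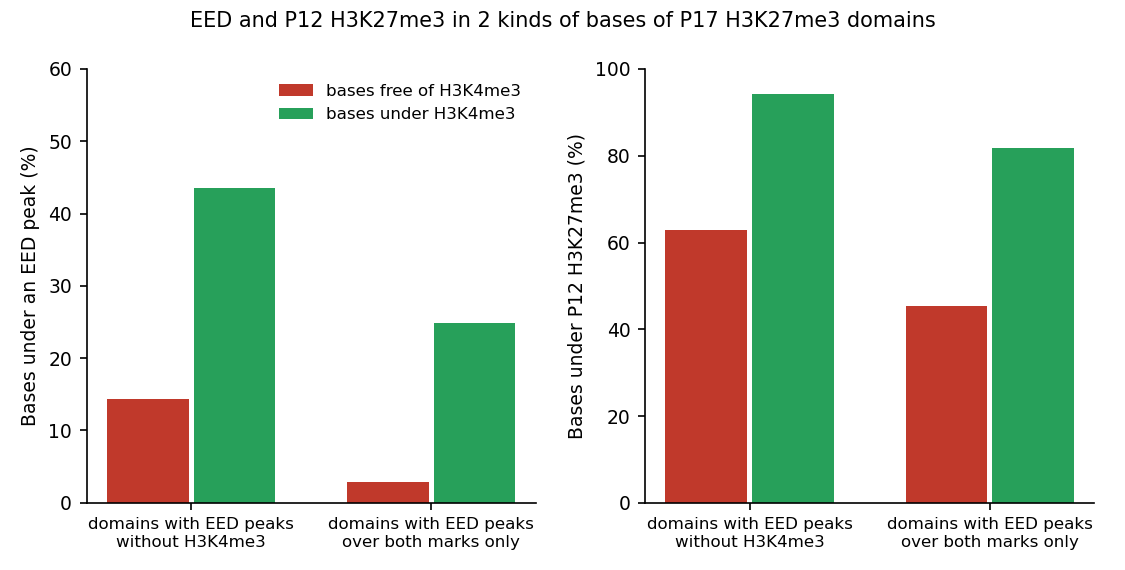
Share of bases (%) under a P17 EED peak (left) and under a P12 H3K27me3 peak (right), for bases free of H3K4me3 (red) and under H3K4me3 (green) in the 136 domains with H3K27me3-only EED peaks and the 463 domains with dual-mark EED peaks only. In the 136 domains EED lay on 14.4% of H3K4me3-free and 43.6% of H3K4me3-covered bases.

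The peaks lay farther in bases from the edge of their domain than dual-mark peaks, in domains that were also wider (medians of 21740 and 14863 bp per peak). The distance to the nearer domain edge had a median of 5882 bp (5064 to 6442) for H3K27me3-only peaks and 4174 bp (3952 to 4339) for dual-mark peaks. When each domain was divided into 3 equal parts along the chromosome, 63 of the 253 midpoints fell in the first, 108 in the middle and 81 in the last, and that of the chromosome 10 peak fell outside. The middle part held 42.7% (36.7% to 48.8%) of H3K27me3-only peaks and 52.9% (50.7% to 55.1%) of dual-mark peaks.

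H3K27me3 was already called at P12 under most of these peaks. Of the 253, 219 shared at least 1 bp with a P12 H3K27me3 peak, 86.6% (81.8% to 90.2%), against a background of 78.7% over all EED peaks. The share was 94.4% (1859 of 1970; 93.3% to 95.3%) for dual-mark peaks, 48.6% (36 of 74; 37.6% to 59.8%) for peaks over H3K4me3 only and 2.97% (12 of 404; 1.71% to 5.12%) for peaks outside both marks. Full cover by P12 H3K27me3 was found for 190 of the 253, 75.1% (69.4% to 80.0%), close to the background of 73% over all EED peaks, and for 88.1% (86.6% to 89.4%) of dual-mark peaks. The intervals of H3K27me3-only and dual-mark peaks did not overlap in either measure, but peaks of 1 domain share it and the difference was not tested. With 1 peak per host domain, the widest, the H3K27me3-only share was 80.9%. The dual-mark share was not recounted in this way, so the 2 shares cannot be compared per domain.

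By bases the same order held. Of the 88.9 kb in H3K27me3-only EED peaks, 86.1% lay under P12 H3K27me3. In the same host domains, the 1143 kb free of both H3K4me3 and EED had 58.5% under P12 H3K27me3. For the dual-mark EED peaks the share was 95.8%. Counted once per EED peak, the P12 H3K27me3 peaks under the 219 had a median width of 5715 bp (4444 to 6699). The median over the whole P12 list, counted once per P12 peak, was 1090 bp. A wide P12 peak can lie under several EED peaks and has more room to be overlapped. How far this sets the difference was not tested.

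P12 cover went with the width of the host domain. It was found for 64.8% (35 of 54) of H3K27me3-only peaks in hosts under 10 kb, 86.4% (51 of 59) from 10 to 20 kb, 94.7% (107 of 113) from 20 to 40 kb and 96.3% (26 of 27) above. Dual-mark peaks in the same classes stood at 84.6%, 97.3%, 99.8% and 100%. Within each class the H3K27me3-only share was the lower, with intervals that did not overlap in the 3 classes under 40 kb. Above 40 kb they overlapped (81.7% to 99.3% and 96.9% to 100%). Peaks of the same domain are not independent, so these intervals are too narrow, and the difference was not tested. H3K27me3-only peaks were also narrower, with median widths of 229, 279, 312 and 292 bp in the same classes. Dual-mark peaks had 278, 400, 398 and 475 bp. A narrower peak has less room to touch P12 H3K27me3, and the part of peak width in these shares was not tested.

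**Figure D5:**
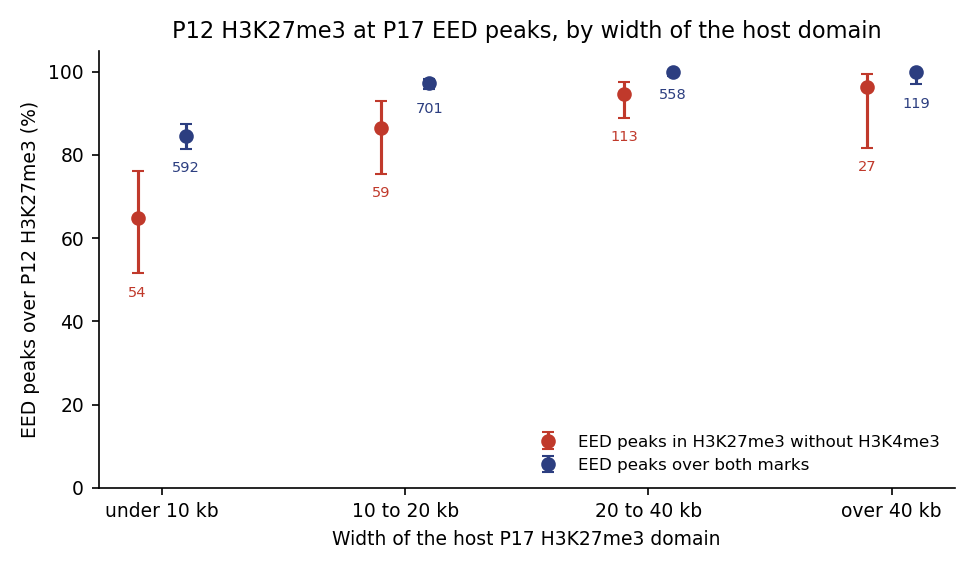
Share of P17 EED peaks over a P12 H3K27me3 peak (vertical axis, %) by width of the host domain, for H3K27me3-only (red) and dual-mark (blue) peaks; bars are Wilson 95% intervals and the figures under them the number of peaks. The H3K27me3-only share is 64.8% in hosts under 10 kb and 96.3% in hosts over 40 kb.

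Position in the domain separated the peaks in the same way. P12 H3K27me3 lay under 158 of the 165 peaks between 2 H3K4me3 peaks, 95.8% (91.5% to 97.9%). It lay under 57 of the 77 between an H3K4me3 peak and the domain edge, 74.0% (63.3% to 82.5%), and under 4 of the 11 in domains without H3K4me3, 36.4% (15.2% to 64.6%). These groups also differed in host width, with medians of 24382, 10513 and 2375 bp per EED peak, and the part of host width in this order was not tested.

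The 34 peaks without P12 cover were nearer the edge and in smaller domains. Their median distance to the domain edge was 798 bp (571 to 1751), against 6309 bp (5772 to 6820) for the 219 with cover, and their median host width was 8256 bp (4423 to 14481), against 23133 bp (20493 to 23879). Their median width was 225 bp (196 to 270), against 303 bp (277 to 329). Of the 34, 28 lay in a host domain that overlapped P12 H3K27me3 elsewhere, 82.4% (66.5% to 91.7%). Counted per domain, 130 of the 136 hosts overlapped P12 H3K27me3, 95.6% (90.7% to 98.0%). In domains with dual-mark EED peaks only, 425 of 463 did, 91.8% (88.9% to 94.0%), so the intervals overlapped. Of all 26387 P17 H3K27me3 domains, 8462 did, 32.1%. Median widths of the 3 sets were 14465, 8069 and 2529 bp, and the part of width in these shares was not tested. Among the 34 peaks, a P12 H3K27me3 peak lay within 500 bp of 17, within 1000 bp of 23 and within 5000 bp of 31. The P12 list came from 1 library and the P17 list from a pool, so an uncalled P12 stretch beside a called one is not a measured absence of the mark.

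Under the rule used here, few of these peaks lay over H3K4me3 called at P12. A P12 H3K4me3 peak lay on 9 of the 253, 3.56% (1.88% to 6.62%), against a background of 70.2% over all EED peaks and 92.7% (91.5% to 93.8%) for dual-mark peaks. The median distance to H3K4me3 was 506 bp (404 to 603) at P17 and 632 bp (538 to 776) at P12. On chromosome 1 the 1644 bp peak shared 1248 bases with P12 H3K4me3, and a 211 bp peak at 91825639 to 91825849 shared all of its bases. A pair on chromosome 12 in 1 domain, at 34647397 to 34647724 and 34648084 to 34648331, shared 328 and 224 bases. On chromosome 13, peaks at 95477703 to 95478028 and 84484706 to 84485072 shared 326 and 110. The other three shared 79, 71 and 2 bases. Of the 9, 7 were covered in full by P12 H3K27me3 as well. The overlap with P12 H3K4me3 is close to the rule, which removed peaks over H3K4me3 at P17: the share was 18.6% when H3K4me3 on less than 50% of the EED peak was allowed and 22.5% when the midpoint was classified.

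The 11 peaks in domains without H3K4me3 made up a small group of their own. Their hosts were 1299 to 7532 bp wide (median 2375 bp), each held 1 of them and no dual-mark EED peak, and the nearest H3K4me3 peak was 777 to 25542 bp away (median 8127 bp). The farthest from H3K4me3 of all 253 was a 145 bp peak on chromosome 3 at 154233380 to 154233524, at 25542 bp. A 178 bp peak on chromosome 7 at 36613172 to 36613349 followed at 22636 bp. Neighbouring peaks on chromosome 9, the 1096 bp peak and one of 372 bp at 89776684 to 89777055 in the next domain, lay at 13198 and 12790 bp with 36 bp between them. A 199 bp peak on chromosome 13 at 56101624 to 56101822 lay at 11301 bp. Their median width of 285 bp (145 to 372) spanned that of the whole class.

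Chromosomes contributed unequally. Chromosome 12 held 32 of the 253 in 9 host domains, which was 21.3% (15.5% to 28.6%) of its 150 EED peaks. Chromosome 14 held 25 in 7 domains, 18.1% (12.6% to 25.4%) of its 138, with 13 of them in the single domain described above. At the other end chromosome 4 held 2 of 131, 1.53% (0.42% to 5.40%), and chromosome 10 held 4 of 112, 3.57% (1.40% to 8.82%). Chromosome 2, with the most EED peaks, held 30 of 299, close to the 9.37% of the whole list. The X chromosome held none of its 5 EED peaks in the class, a count too small to set a useful limit (Wilson upper bound 43.4%). Only 1 of those 5 lay in H3K27me3 at all. All these shares are of every EED peak on a chromosome, whether in H3K27me3 or not. Peaks of 1 domain are not independent, so these intervals are too narrow, and no difference between chromosomes was tested.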

How the data were processed

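The submitters' processing notes name the mm9 build and the tools Bowtie, SAMtools and HTSeq, without versions or roles. The deposited peak lists hold start and end positions named by MACS, per the peak names, at the level 5 that the file names give for a false discovery rate. Beyond position they hold no measure of strength, and settings of the caller were not given in the sources used here. Lists held 2701 EED, 26387 H3K27me3 and 51603 H3K4me3 peaks at P17, and 13028 H3K27me3 and 44142 H3K4me3 peaks at P12. Read depth is unknown. Samples were grouped by title, because 1 antibody entry (H3K27me3, for P17 H3K4me3) went against its title. Input samples and gene-body counts were not used here.

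Overlaps were computed in Python 3.11.15 with numpy 2.4.6, pandas 2.3.3 and scipy 1.17.1, tested on simulated peaks, and the number of H3K27me3-only EED peaks was checked with bedtools 2.31.1. Shares have Wilson 95% intervals and medians exact order-statistic intervals. Regions named by plan were the 5 widest peaks, the widest peak of each of the 5 widest hosts and the 5 hosts with the most peaks. Further ones were the 5 peaks nearest to and the 5 farthest from H3K4me3, and the 5 with the least overlap with H3K27me3. The 5 EED peaks just outside each boundary were also named. The smallest groups were added after their values were seen. The planned descriptions of genes, sequence content and motifs needed an mm9 annotation or genome and were not made. The class and its measures were chosen with earlier results of these data known. A further 3 alternatives were added after the data had been seen.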

Additional observations from a re-analysis of the deposited data

How the results depend on the processing

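Of 90 values (9 results under 10 alternative settings), 59 stayed within the interval of the reported value, or within 1.5 times it for counts; no setting left out a replicate, since each list stands alone. No paired analysis was possible because each mark and stage has 1 list. The other 31 moved as follows. Requiring no H3K4me3 peak within 1 kb left 62 peaks (2.30% of EED peaks) in 43 domains of median width 19659 bp, at a median of 2002 bp from H3K4me3, with 77.4% over P12 H3K27me3 and 83.9% in domains with H3K4me3. Merging EED peaks within 1 kb left 51 regions (3.82%) in 48 domains of median width 10930 bp, with a median region width of 226 bp and 1184 bp to H3K4me3; 72.5% lay over P12 H3K27me3, 9.80% over P12 H3K4me3 and 82.4% in domains with H3K4me3. With EED peaks of at least 200 bp the median width was 326 bp, and with host domains of at least 2 kb 97.6% lay in domains with H3K4me3. Excluding H3K4me3 at either stage sets the P12 H3K4me3 share to 0 by construction. Allowing H3K4me3 on less than 50% of the peak gave 13.3% of EED peaks, a median width of 330 bp, 204 bp to H3K4me3 and 18.6% over P12 H3K4me3. Classifying the midpoint gave 14.0%, 339 bp, 188 bp and 22.5%. Taking 1 peak per domain left 136 peaks (5.04%), with 80.9% over P12 H3K27me3 and 91.9% in domains with H3K4me3. The last 3 settings were chosen after seeing the data. Settings that shrink or widen the class change which peaks enter by construction; other causes were not tested. Peak lists without scores allow no stricter threshold, and calls from pooled and single libraries differ in depth that the files do not give. Of the numbers in the peak names, 11.0% were missing from the EED list and 13.1% from the P12 H3K27me3 list, and 0 from the P17 H3K27me3 list.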

Other observations

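The 12 EED peaks that lay outside both P17 marks but over a P12 H3K27me3 peak all fell on chromosome 6 between 52111639 and 52217114. They lay 13394 to 62058 bp from the nearest P17 H3K27me3 peak and 17 to 4388 bp from the nearest P17 H3K4me3 peak, and 11 of the 12 were covered in full by P12 H3K27me3. Had a P17 H3K27me3 domain been called over them, the rule would have counted them among the H3K27me3-only EED peaks. They were 211 to 836 bp wide, against a median of 174 bp for all EED peaks outside both marks.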
